A study of Manis javanica with 3 samples.

Results

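The endoplasmic reticulum (ER) folding and secretion machinery is the set of genes whose products bring new proteins into the ER, fold them, send them on to the Golgi and adjust this capacity under load. It was taken here as 55 listed gene symbols, and a gene was a member when its Swiss-Prot entry carried a listed symbol, with paralogs told apart by the product name in the NR protein entry. Of the 55 symbols, 53 were found among the 24220 genes with expression values. Swiss-Prot symbols gave 42 of them, the symbol of a listed paralog with the NR name gave CREB3L1 and KDELR3, and the NR or KEGG name alone gave 9 (ERO1A, ERO1B, HYOU1, SRPRB, ATF4, ATF6, ERN1, EIF2AK3 and SEC24D). The identities of ERN1 and SRPRB rest on the KEGG entry only, since NR gives a hypothetical protein for both. For the ERN1 model (gene131) the Swiss-Prot symbol is that of another kinase, PHKG1, so this identity is uncertain. SRP9 and SSR2 were in the annotation but had no expression values, so they are not analysed here. The members comprised 16 genes of translocation, 20 of folding, 9 of export and 8 of the stress response.

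RNA of liver, salivary glands and small intestine came from 1 adult female Malayan pangolin (Manis javanica), a wild animal that died naturally while being rescued and had ants in its stomach. Dissection followed without delay, the labels name no treatment, and poly-A RNA of each tissue was sequenced as 1 library. No tissue had a second library, so no value below has a replicate check, and tissue, dissection and library cannot be told apart. The tissues were sequenced in bulk, so more cells of a secreting type and more RNA per cell cannot be told apart either.

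Total deposited counts were 10158924 for small intestine, 8318686 for salivary glands and 14568778 for liver. A count of 0 allowed up to 0.295, 0.361 and 0.206 CPM (counts scaled to a common library size) in the same order, and these limits, like all intervals below, cover counting error only. All 53 members had at least 10 counts in every library, the lowest being 68 for ERO1A in small intestine, 110 for SEC23A in salivary glands and 54 for KDELR3 in liver. Levels are given as the deposited FPKM (fragments mapped to a gene, scaled for transcript length and for the mapped fragments of the library), always in the order small intestine, salivary gland, liver. Differences between libraries are given as ratios of counts scaled by TMM (trimmed mean of M-values), mostly as log2 ratios with exact 95% intervals. The deposited FPKM was not a fixed multiple of count over listed gene length. Across members, FPKM divided by CPM per kilobase of listed length ranged from 0.911 to 4.27 for small intestine, from 0.625 to 2.45 for salivary glands and from 0.764 to 3.28 for liver. The length behind each FPKM is not given, so comparisons of level between genes carry that uncertainty, while ratios of counts between libraries do not use it.

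The tissue labels were compared with marker genes before the members. All 9 hepatocyte genes were highest in the liver library, where their summed FPKM was 27494 against 112 and 124 in the small intestine and salivary gland libraries. FGB (fibrinogen beta chain) was the most abundant of them in liver at an FPKM of 12822, ALB in the small intestine library at 89.1 and SERPINA1 in the salivary gland library at 119.97. Of 5 salivary genes, latherin (LATH) reached an FPKM of 62922 in the salivary gland library, where the list summed to 63017 against 117 and 27.7 elsewhere, and AQP5 was the most abundant in liver at 24.7. The sum was nearly all latherin. AQP5 was also highest in salivary glands at 94.3, whereas MUC5B was highest in liver with 0.199, 0.245 and 3.01. LPO was near 0 with 6, 6 and 2 counts, and BPIFA1 had 0 counts in all 3 libraries.

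Several defining enterocyte markers had no counts in the library labelled small intestine. Of 10 enterocyte genes, FABP2, LCT, MEP1A, CDX1 and FABP6 had 0 counts there (FABP2, LCT and MEP1A in all 3 libraries), and the list summed to an FPKM of 26.2, 27.6 and 24.9 in the 3 libraries. VIL1 held most of that sum in each, at an FPKM of 23.995, 25.7 and 21.2. SLC5A1, the intestinal glucose transporter, was highest in the library labelled small intestine, with 1.94, 0.221 and 0.457. ALPI was highest in liver, with 0.0507, 0.829 and 2.77, and CDH17 in salivary glands, with 0.193, 0.833 and 0.109. Of the 4 enterocyte genes compared, TMM-scaled counts of 1 were highest in the library labelled small intestine, of 2 in salivary glands and of 1 in liver. The 11 gastric genes summed to an FPKM of 110134 in the library labelled small intestine, against 83.5 in the salivary gland library and 0.503 in liver, with pepsin A (PGA) at 94138, 71.7 and 0. TFF2 was the only gastric gene with counts in liver. The name small intestine is kept below as the label of this library only.

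Other cell type markers differed between the libraries too. The 7 smooth muscle genes summed to an FPKM of 3315, 354 and 33.2, with TAGLN the most abundant in each library at 1023, 156 and 26.7, and ACTG2 at 0 counts in all 3. All 8 macrophage genes were highest in liver, with sums of 42.7, 49.1 and 463, and MARCO and CLEC4F had 0 counts in the small intestine library. C1QB was the most abundant macrophage gene in the small intestine and liver libraries at 19.1 and 276, and CD14 in the salivary gland library at 26.9. Goblet and Paneth cell genes (3 found) summed to 18.2, 14.7 and 31.04, nearly all from LYZ at 17.3, 14.6 and 30.9. Skeletal muscle genes (6 found) summed to 29.6, 31.9 and 2.12, led by CKM at 24.8, ACTA1 at 26.8 and TNNC2 at 2.09. Erythroid genes (5 found) summed to 5.18, 1.99 and 1.79, led by HBB at 3.82, AHSP at 1.33 and AHSP at 0.787. The part of such differences in cell content in the members' values was not tested.

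As background, a secreted protein is recognised by the signal recognition particle as it leaves the ribosome, threads through the SEC61 channel into the ER and loses its signal peptide there. Chaperones and disulfide isomerases fold it, COPII coated vesicles carry it towards the Golgi, and sensors in the ER membrane raise the amount of this machinery when unfolded protein builds up. Hepatocytes secrete most plasma proteins and salivary acinar cells release saliva proteins, so both are classic examples of cells with abundant rough ER.

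Members held 0.402% of the summed FPKM of the small intestine library, 0.898% of that of salivary glands and 1.504% of that of liver. As a share of counts, the same genes held 0.440% (95% Wilson interval 0.436 to 0.444%), 1.15% (1.14 to 1.16%) and 1.96% (1.95 to 1.97%). The median member had an FPKM of 28.9, 41.4 and 83.7. On both scales liver was the highest of the 3 and the small intestine library the lowest. The 10 most abundant genes took 47.4%, 39.8% and 29.01% of the FPKM, and without them the members' share was 0.763%, 1.49% and 2.12%, in the same order of libraries.

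By role, the shares of FPKM did not follow a single pattern. Translocation genes held 0.156%, 0.253% and 0.309% of the FPKM. Folding genes held 0.131%, 0.169% and 0.774%, with the largest share in liver, and as a share of counts they held 0.205%, 0.319% and 1.23%. Export genes held 0.0311%, 0.0655% and 0.0822%. Stress response genes held 0.0842%, 0.409% and 0.339%, the only role with its largest share in the salivary gland library, where XBP1 made up most of it. Without XBP1, all other members together held 0.379%, 0.623% and 1.302%.

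**Figure D1:**
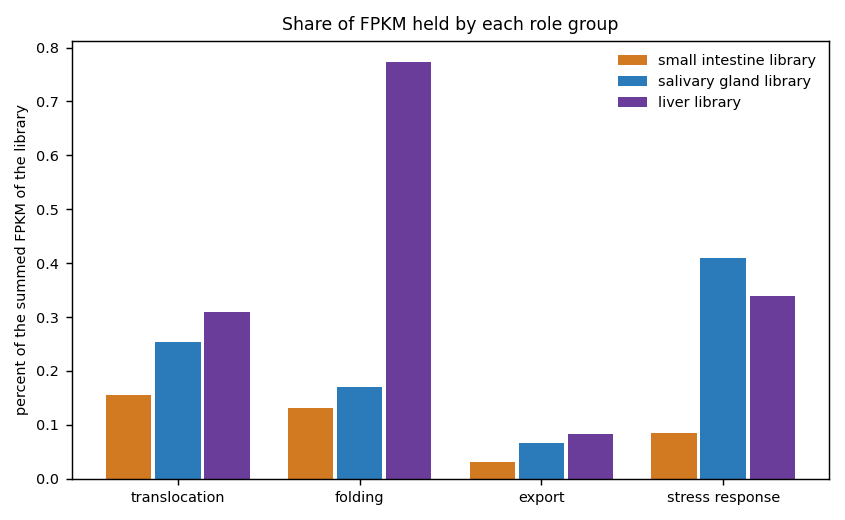
Bars give the percent of each library's summed FPKM held by the members of each role, with 1 library per tissue. Folding genes reach 0.774% in the liver library against 0.131% and 0.169% in the others, while stress response genes peak at 0.409% in the salivary gland library.

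Ribosomal and lysosomal genes give a frame for these shares. The 81 cytosolic ribosomal protein genes held 11.2%, 12.8% and 7.97% of the FPKM, with the lowest share in liver. The 28 lysosomal genes found held 0.155%, 0.241% and 0.393%, in the same order of libraries as the members.

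A member was counted as past the fold when its TMM-scaled counts differed at least 2-fold and at least 1 of the 2 libraries had 10 counts. In salivary glands against liver, 4 of 53 members were past the fold towards salivary glands (7.55%, against 22.9% of the 17162 genes compared) and 22 towards liver (41.5%, against 24.9%). The median log2 ratio was -0.78 over members and -0.07 over all genes compared. In salivary glands against small intestine, 9 members were past the fold towards salivary glands (16.98%, against 16.9% of 16519 genes) and 1 towards the small intestine library (1.89%, against 20.6%), with a median log2 ratio of 0.55 against 0.02. The first of these shares was close to that of all genes. With library size alone as the scale, 28 members (52.8%) were past the fold towards salivary glands, against 28.5% of all genes. In small intestine against liver, 3 members were past the fold towards the small intestine library (5.66%, against 24.2% of 17399 genes) and 32 towards liver (60.4%, against 24.2%), with a median of -1.28 against -0.08.

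The 3 comparisons share libraries and are not independent of each other. Counted over the 3 libraries at once, TMM-scaled counts were highest in liver for 39 of 53 members, in salivary glands for 12 and in the small intestine library for 2, where 39.4%, 30.5% and 30.1% of 18037 genes were highest. The small intestine library was the lowest for 35 of the 53, against 33.1% of all genes. For 51 of the 53 the deposited FPKM put the highest value in the same library as TMM-scaled counts.

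**Figure D2:**
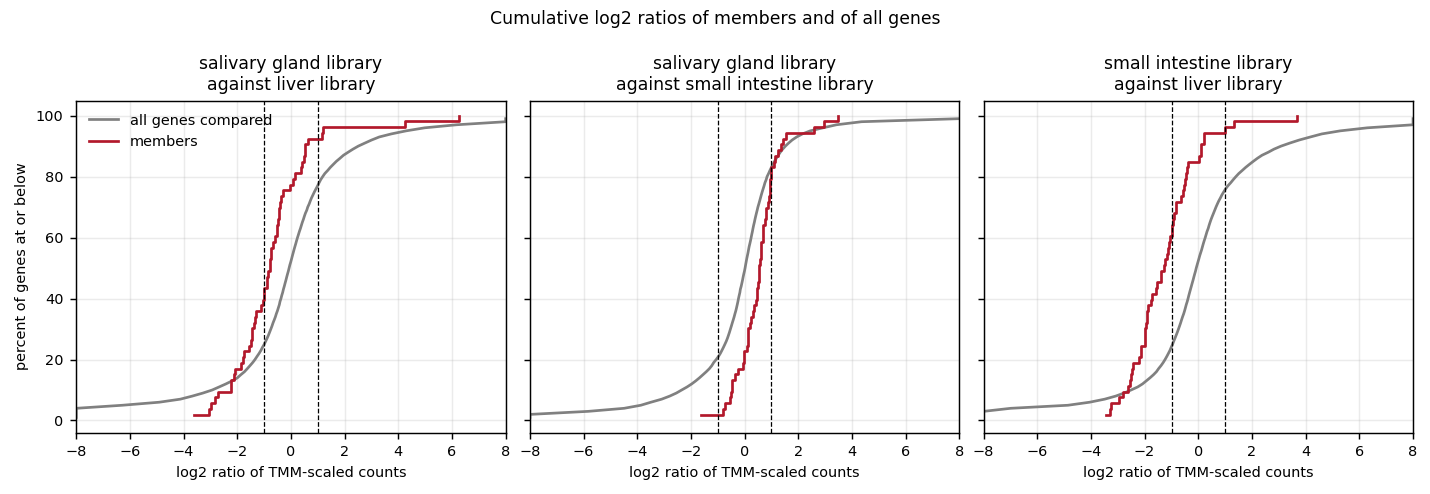
Cumulative percent of genes (vertical axis) at or below each log2 ratio of TMM-scaled counts (horizontal axis, clipped at 8) for members in red and all genes compared in grey, 1 panel per comparison, with dashed lines at a 2-fold difference. At the midpoint the members' curve lies to the left in both comparisons with liver, with medians of -0.78 and -1.28, while in the lowest tail it lies to the right of that of all genes.

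Among translocation genes, those of the signal recognition particle and its receptor came first in the pathway. SRP54 (gene3683), which binds the signal sequence, had an FPKM of 16.4, 28.1 and 73.4 and counts of 350, 724 and 2239. SRP14 (gene13074), which helps slow translation, had an FPKM of 28.8, 49.3 and 37.7. SRPRB (gene16435), the membrane anchor of the receptor, had 47.2, 65.5 and 60.4. Of these 3 gene models only SRP54 was past the fold in a comparison, with a log2 ratio of -1.04 (interval -1.16 to -0.92) for salivary glands against liver and -1.92 for small intestine against liver. A new gene that NR names as the receptor beta subunit (Manis_javanica_newGene_5521), not kept as SRPRB and described after its values were seen, had counts of 71, 204 and 259. It was past the fold at log2 ratios of 1.35 for salivary glands against small intestine and -1.11 for small intestine against liver, so the result for SRPRB depends on the gene model. Within a library, SRP14 stood at 1.76 and 1.75 times the FPKM of SRP54 in the small intestine and salivary gland libraries and at 0.513 times in liver.

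The 3 SEC61 subunits form the channel through which chains enter the ER. SEC61A1 (gene6302), the pore itself, had an FPKM of 107, 154 and 332 with counts of 1793, 3103 and 10248. Its gene model begins at position 1 of scaffold NW_016530979.1 and ends at 14146, so it reaches the scaffold's edge. SEC61B (gene6249) had an FPKM of 85.8, 178 and 247 and SEC61G (gene12120) 71.6, 131 and 190. All 3 subunits rank in the same order of libraries, lowest in small intestine and highest in liver. Within each library their FPKM lay within 1.49-fold, 1.36-fold and 1.75-fold of each other. SEC61B was the only translocation gene past the fold between salivary glands and small intestine, at 2.35-fold (2.01 to 2.76). Its locus overlaps that of ALG2, which had TMM-scaled counts of 19.7, 38.9 and 99.8 CPM, while those of SEC61B were 25.3, 59.4 and 73.2. The part of shared reads in the level of SEC61B was not tested. Against liver, the salivary gland log2 ratio was -1.13 (-1.19 to -1.08) for SEC61A1, -0.30 for SEC61B and -0.45 for SEC61G.

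SEC62 and SEC63 help the channel to take up chains after their synthesis is complete. SEC62 had an FPKM of 40.4, 52.6 and 95.01, and SEC63 had 18.4, 20.5 and 33.9. Neither of these gene models was past the fold in any comparison. A short new gene with the SEC63 symbol (Manis_javanica_newGene_12748), chosen after its values were seen, had counts of 31, 41 and 153 and was past it towards liver, at log2 ratios of -1.31 for salivary glands and -1.54 for small intestine against liver. Of the other models with that symbol and product, gene26678 (counts of 118, 169 and 300, log2 ratios of -0.24 and -0.59) and Manis_javanica_newGene_13750 (counts of 30, 37 and 66, -0.24 and -0.38) were not past it. A model with the symbol that NR names a hypothetical protein, gene13300, had 0 counts.

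The translocon-associated subunits SSR1, SSR3 and SSR4 sit beside the channel and aid the entry of some signal sequences. SSR4 (gene13778) had an FPKM of 363, 371 and 166, the highest of any member in the small intestine library. SSR1 (gene11353) had 27.9, 41.4 and 144, and SSR3 (gene3217) had 64.7, 82.8 and 175. SSR4 was thus lowest in liver, where SSR1 and SSR3 were highest, and the subunits were near parity only there. The highest subunit stood 13.0-fold above the lowest in the small intestine library, 8.97-fold in salivary glands and 1.22-fold in liver. The counts of SSR4 were 1761, 2178 and 1485, which gave a log2 ratio of 1.14 (1.05 to 1.24) for salivary glands against liver and of 1.01 (0.90 to 1.11) for small intestine against liver. For SSR1 the same comparisons gave -1.47 (-1.56 to -1.38) and -2.15 (-2.26 to -2.03).

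Signal peptidase, which removes the signal peptide, also varied among its subunits. SPCS1 (gene1767), an accessory subunit, had an FPKM of 57.1, 106 and 48.6, with counts of 356, 780 and 519. Its salivary gland level was 2.26-fold that of liver in TMM-scaled counts (2.02 to 2.53). SPCS2 (gene15451), another accessory subunit, had an FPKM of 14.9, 24.1 and 73.4 and was past the fold towards liver in both comparisons with it, at log2 ratios of -1.34 and -2.01. SPCS3, needed for activity, had an FPKM of 69.6, 60.1 and 84.2 with no fold past 2. The catalytic paralogs SEC11A and SEC11C had an FPKM of 33.2, 63.1 and 48.2 and of 66.5, 84.4 and 115. SEC11C exceeded SEC11A in every library, with SEC11A at 0.499, 0.747 and 0.417 times its FPKM.

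Taken as a role, 2 of 16 translocation genes (SPCS1 and SSR4) were past the fold towards salivary glands when compared with liver (12.5%, against 22.9% of all genes) and 4 towards liver (25%, against 24.9%), with a median log2 ratio of -0.46. The share towards liver was thus that of all genes. Between salivary glands and small intestine the counts were 1 (6.25%, against 16.9%) and 0 (against 20.6%), with a median of 0.65. With library size alone as the scale, this median was 1.10, itself past a 2-fold difference, against 0.47 over all genes. With DESeq2 factors it was 0.63 and with the upper quartile 0.67. The low share towards salivary glands thus does not hold with library size alone as the scale. Between small intestine and liver the counts were 1 (6.25%, against 24.2%) and 7 (43.75%, against 24.2%), with a median of -0.92.

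**Figure D3:**
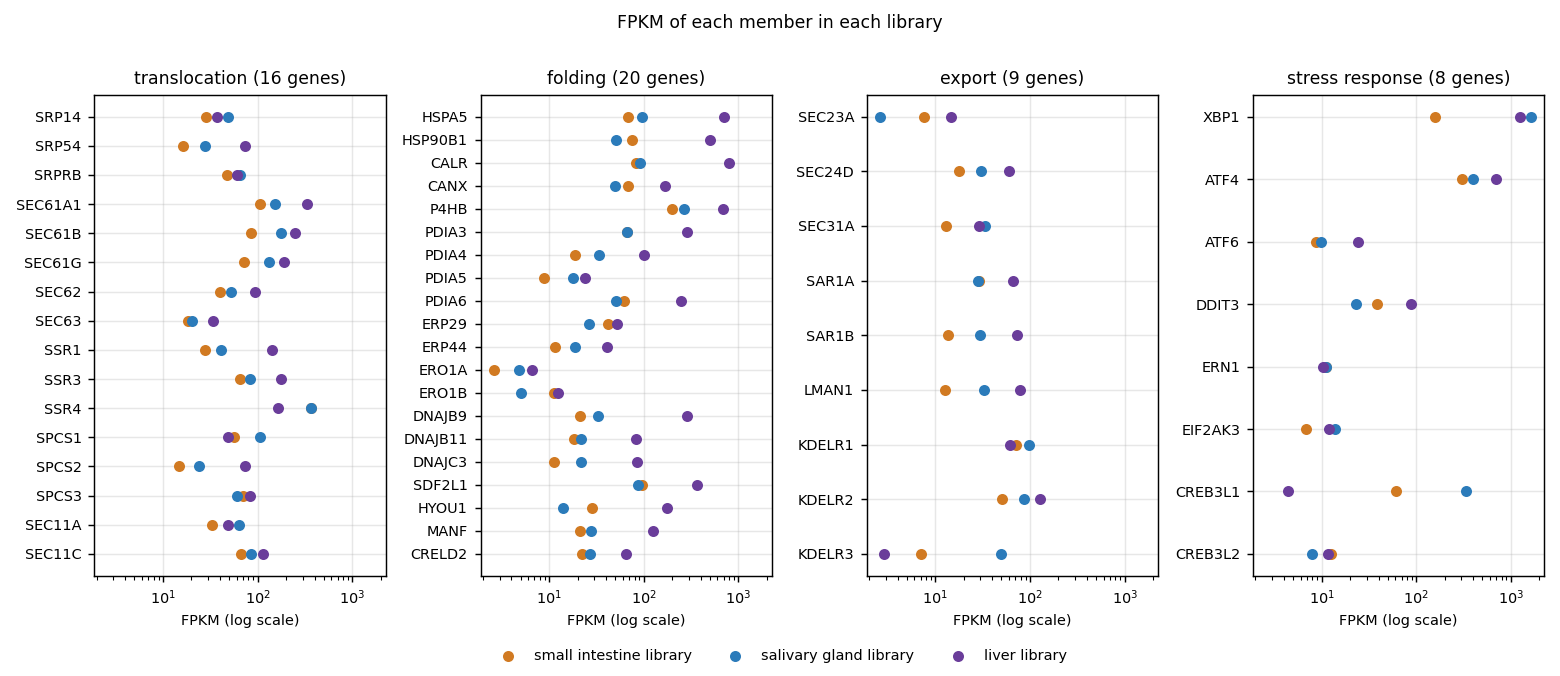
FPKM (horizontal log axis) of each of the 53 members in the small intestine (orange), salivary gland (blue) and liver (purple) libraries, in 1 panel per role, with 1 point per library. Most folding genes have a liver point well to the right of the other points, while CREB3L1 and KDELR3 have their liver point far to the left.

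Folding genes had the widest gap between liver and the other libraries. HSPA5 (gene10048, scaffold NW_016534071.1, 52707 to 57008), the main ER chaperone of the HSP70 family, had an FPKM of 68.5, 96.4 and 703 from counts of 1733, 2889 and 28516. HSP90B1 (gene7223), the ER member of the HSP90 family, had an FPKM of 74.5, 50.9 and 502. HYOU1 (gene3308), which exchanges nucleotide on HSPA5, had 28.1, 14.1 and 176 from counts of 1390, 900 and 16624. All 3 chaperones were several-fold higher in liver, and only HSPA5 was higher in salivary glands than in small intestine. TMM-scaled counts in liver were 6.56-fold (6.31 to 6.81) those in salivary glands for HSPA5, 7.91-fold (7.53 to 8.31) for HSP90B1 and 12.3-fold (11.5 to 13.1) for HYOU1. Relative to the small intestine library, liver was 9.72-fold higher for HSPA5 (9.26 to 10.2), 5.62-fold for HSP90B1 and 7.07-fold for HYOU1. The log2 ratio of salivary glands against small intestine was 0.57 (0.48 to 0.66) for HSPA5, -0.49 (-0.59 to -0.40) for HSP90B1 and -0.80 (-0.92 to -0.67) for HYOU1. Within a library, HSP90B1 stood at 1.09, 0.528 and 0.715 times the FPKM of HSPA5.

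Calreticulin (CALR) and calnexin (CANX) are the soluble and the membrane-bound lectin chaperones that hold glycoproteins during folding. CALR (gene11283) had an FPKM of 83.7, 90.8 and 799.95, the highest of any folding gene in liver. CANX (gene12660) had 68.9, 49.9 and 166. The excess in liver was therefore larger for the soluble lectin, and the FPKM of CALR was 1.21, 1.82 and 4.82 times that of CANX. In TMM-scaled counts liver exceeded salivary glands 8.39-fold (8.04 to 8.76) for CALR and 2.75-fold for CANX.

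Cochaperones of the DNAJ family present clients to HSPA5. DNAJB9 (gene21400), which is induced in the stress response and also acts back on the sensor ERN1, had an FPKM of 21.4, 33.2 and 286 with counts of 292, 500 and 5363. DNAJB11 had an FPKM of 18.1, 21.7 and 83.7, and DNAJC3 had 11.2, 21.7 and 83.9. SDF2L1, a partner of DNAJB11, had 96.8, 87.001 and 369. All 4 were past the fold towards liver in both comparisons with it. DNAJB9 had the largest excess of liver over small intestine of all members, 10.8-fold (9.64 to 12.2), and was 7.12-fold (6.499 to 7.82) higher in liver than in salivary glands. MANF, which binds HSPA5, had an FPKM of 21.2, 27.8 and 124, and CRELD2, a stress-induced ER protein, had 22.1, 26.7 and 64.9. Both were past the fold towards liver as well, with log2 ratios of -2.10 and -1.29 for salivary glands against liver.

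Disulfide isomerases form and reshuffle disulfide bonds. P4HB (gene7239), which is also a subunit of prolyl hydroxylase, had an FPKM of 197, 266 and 686 and was the most abundant folding gene in the small intestine and salivary gland libraries. PDIA3, which works with CALR and CANX on glycoproteins, had 67.04, 67.1 and 289.9. PDIA4 had 18.7, 33.4 and 99.8 and PDIA6 had 62.4, 50.9 and 250.1. These 4 isomerases were all past the fold towards liver, with log2 ratios for salivary glands against liver from -1.37 for P4HB to -2.12 for PDIA6. PDIA5 had an FPKM of 8.73, 17.7 and 24.1 and was the only folding gene past the fold between salivary glands and small intestine, at a log2 ratio of 1.37 (1.11 to 1.63).

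Of the remaining oxidative folding genes only ERP44 was past the fold in a comparison, at 2.65-fold (2.21 to 3.19) for liver over small intestine. ERP29, a related protein without the usual active site, had an FPKM of 41.8, 26.5 and 52.3, and ERP44, which retains proteins through thiol bonds, had 11.6, 18.95 and 41.4. The oxidases ERO1A and ERO1B recharge the isomerases. ERO1A (gene22887) had the lowest FPKM of the folding genes, 2.63, 4.79 and 6.65, while ERO1B (gene18011) had 11.2, 5.02 and 12.3. The FPKM of ERO1B was 4.25, 1.05 and 1.86 times that of ERO1A, from counts of 361 against 68, 246 against 132 and 534 against 206. Neither oxidase was past the fold in any comparison, and the interval for ERO1A in salivary glands against liver spanned 0 (-0.38 to 0.27).

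None of the 20 folding genes was past the fold towards salivary glands (against 22.9% of all genes) and 15 were past it towards liver in that comparison (75%, against 24.9%), with a median log2 ratio of -1.69. All 20 ratios were below 0, against 52.2% of all genes, and 19 were below 0 with library size or the upper quartile as the scale, ERO1A being the other. Between small intestine and liver 17 of 20 were past the fold towards liver (85%, against 24.2%) and none the other way, with a median of -2.05. Between salivary glands and small intestine only PDIA5 was past the fold with TMM scaling (5%, against 16.9%), and the median was 0.38. With library size alone as the scale, this median was 0.84, against 0.47 over all genes, so the count depends on the scale. Summed over the 20 genes, TMM-scaled counts in liver were 4.49-fold those in salivary glands and 5.11-fold those in the small intestine library, while salivary glands exceeded small intestine 1.14-fold. By TMM-scaled counts 19 of 20 were highest in liver (95%, against 39.4% of all genes), the other being ERO1B.

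Hepatocyte and macrophage markers were also highest in the liver library, with the sums given above, and their part in the folding genes' values was not tested.

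Among export genes, SAR1A and SAR1B are the small GTPases that start a COPII vesicle. SAR1A (gene25227) had an FPKM of 28.9, 28.1 and 66.8, and SAR1B (gene2374), the paralog needed for lipoprotein export, had 13.7, 29.8 and 72.3. SAR1B was at 0.474 times the FPKM of SAR1A in small intestine and at 1.06 and 1.08 times in salivary glands and liver. Its log2 ratio of salivary glands against small intestine was 1.10 (0.96 to 1.25), and that of SAR1A was -0.01 (-0.16 to 0.14).

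The coat itself did not move as a unit. SEC23A (gene5657), of the inner coat, had an FPKM of 7.65, 2.60 and 14.7 and counts of 306, 110 and 775. SEC24D (gene12213), its cargo-binding partner, had 17.8, 30.2 and 59.5. SEC31A (gene17588), of the outer coat, had 13.0, 33.7 and 28.8. SEC23A was the only member past the fold towards small intestine in the comparison with salivary glands, at 3.13-fold (2.51 to 3.93), whereas SEC31A was 2.72-fold higher in salivary glands (2.43 to 3.05). SEC23A was also 4.68-fold higher in liver than in salivary glands. The paralog SEC23B, chosen after its values were seen, had an FPKM of 16.4, 24.7 and 73.1. Its log2 ratio was -1.37 for salivary glands against liver and 0.68 for salivary glands against small intestine. Both paralogs were thus lower in salivary glands than in liver, while only SEC23A was lower there than in small intestine. A separate gene model with the SEC31A symbol (gene8113), also chosen after its values were seen, had an FPKM of 19.5, 61.2 and 63.4.

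LMAN1 (gene10025) is the lectin that carries glycoproteins out of the ER. Its FPKM was 12.7, 32.3 and 78.6, from counts of 412, 1339 and 4001. The TMM-scaled count in salivary glands was 2.89-fold (2.59 to 3.24) that in small intestine, and the log2 ratio of small intestine against liver was -2.52. Its relative LMAN1L (gene25924) carried the LMAN1 symbol in Swiss-Prot but the name ERGIC-53-like in NR, so it was left out of the members and is described here after its values were seen. LMAN1L had an FPKM of 0.268, 70.9 and 0, from counts of 8, 2268 and 0. It was at least 1138-fold higher in salivary glands than the 3 counts that a count of 0 in liver allows.

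KDEL receptors bring escaped chaperones back from the Golgi. KDELR3 (gene10997, scaffold NW_016534759.1, 332235 to 345927) had an FPKM of 7.01, 49.4 and 2.87, from counts of 80, 690 and 54. KDELR2 (gene18487) had an FPKM of 50.1, 86.3 and 127, and KDELR1 (gene24243) had 71.7, 98.7 and 61.6. Each receptor thus had its own pattern, and KDELR3 was the only one with a salivary gland level far above both others. Its TMM-scaled count there was 19.2-fold (14.6 to 25.9) that in liver and 7.67-fold (6.08 to 9.80) that in small intestine. Its FPKM was 0.140, 0.572 and 0.0226 times that of KDELR2. KDELR1 stood at 1.43, 1.14 and 0.485 times KDELR2 and was past the fold nowhere. The KDELR3 locus overlaps that of DDX17 (gene10996), and the reads were aligned as unstranded. DDX17 had TMM-scaled counts of 312, 562 and 322 CPM and was also highest in salivary glands, while those of KDELR3 were 9.25, 70.96 and 3.69. The part of shared reads in the level of KDELR3 was not tested.

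Over the 9 export genes, 1 was past the fold towards salivary glands (11.1%, against 22.9% of all genes) and 2 towards liver in that comparison (22.2%, against 24.9%), with a median log2 ratio of -0.77. Neither share exceeded that of all genes. Between salivary glands and small intestine, KDELR3, LMAN1, SEC31A and SAR1B were past it towards salivary glands (44.4%, against 16.9%) and SEC23A the other way (11.1%, against 20.6%), with a median of 0.81. Between small intestine and liver the counts were 1 (11.1%, against 24.2%) and 5 (55.6%, against 24.2%), with a median of -1.07.

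**Figure D4:**
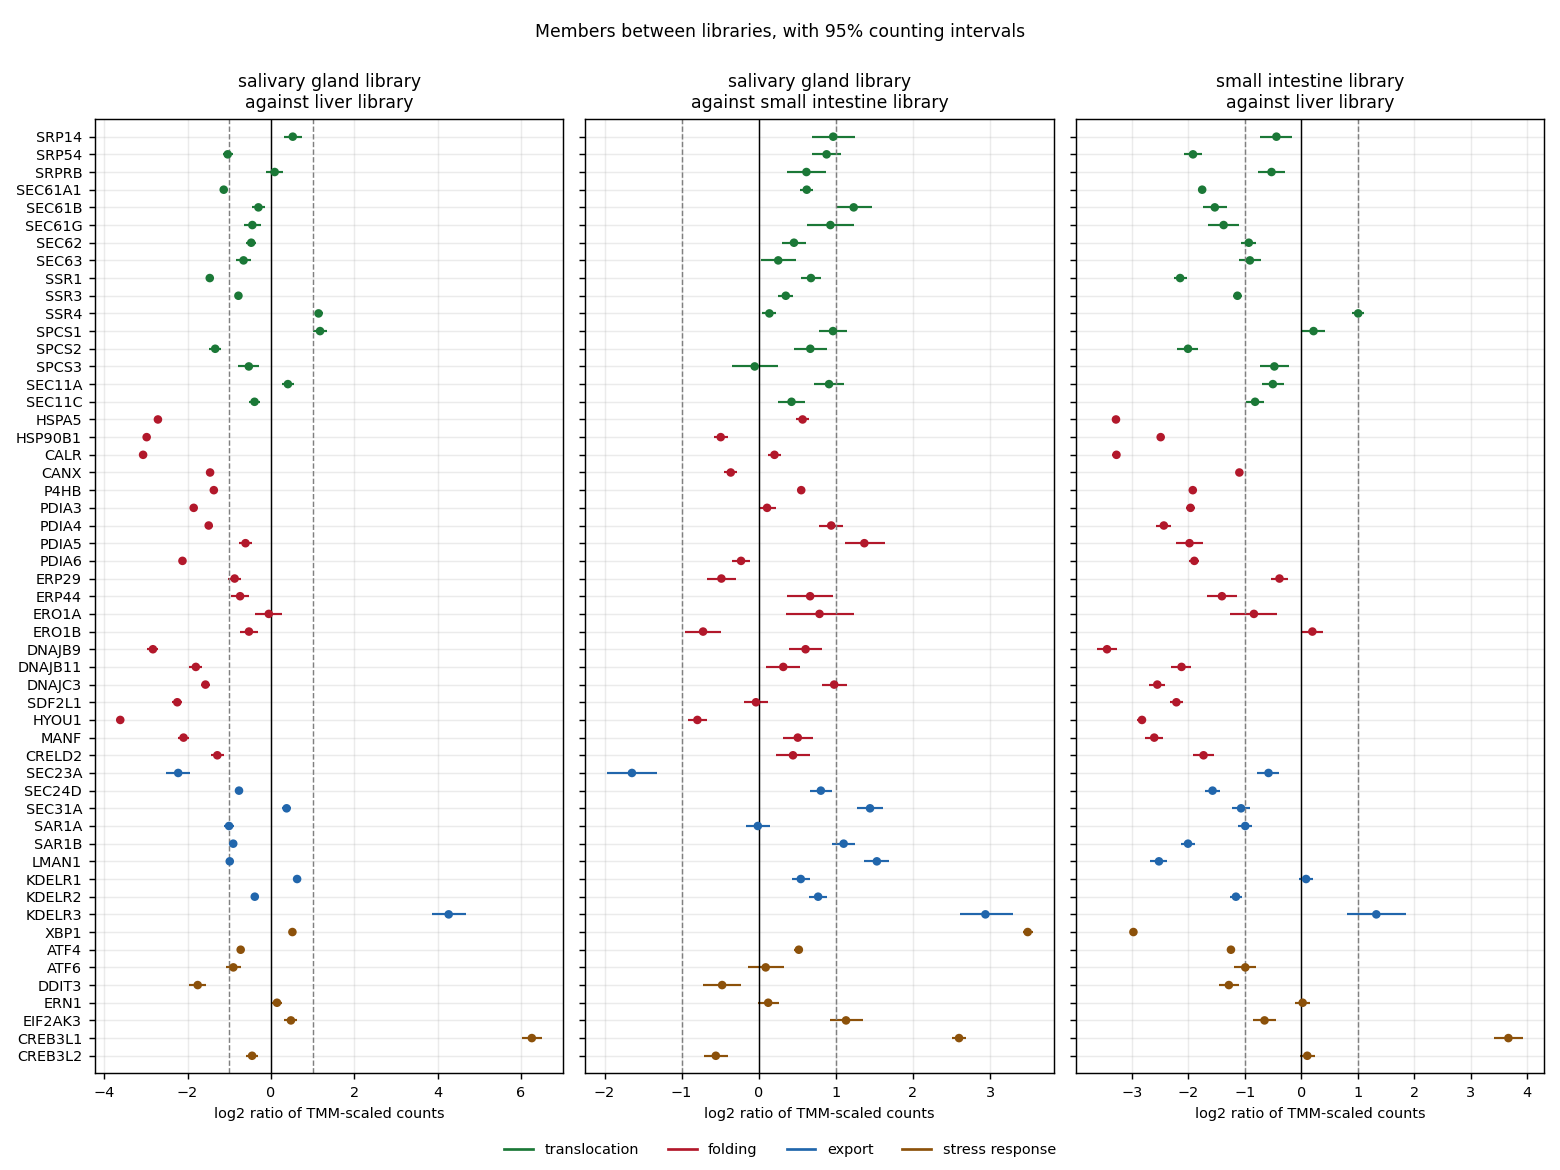
Log2 ratio of TMM-scaled counts (horizontal axis) of each member in the 3 comparisons, coloured by role, with bars for the 95% counting interval and dashed lines at a 2-fold difference. In salivary glands against liver the folding genes all lie below 0, while CREB3L1 at 6.26 and KDELR3 at 4.27 lie furthest above it.

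Among the stress response genes, XBP1 was the most abundant in salivary glands and liver, and ATF4 in small intestine. XBP1 encodes a transcription factor that becomes active when ERN1 splices its mRNA, and it raises many genes of folding and export. XBP1 (gene19266, scaffold NW_016545066.1, 16738 to 21165) had an FPKM of 159, 1640.05 and 1258, from counts of 2154, 27164 and 28616. These levels ranked at percentile 98.6, 99.9 and 99.8 of the genes with counts in each library, and XBP1 was the most abundant member in salivary glands and in liver. The TMM-scaled count in salivary glands was 11.2-fold (10.7 to 11.7) that in small intestine, and that in liver was 7.85-fold (7.51 to 8.20). Between salivary glands and liver the log2 ratio was 0.52 (0.49 to 0.54), not past the fold. Counts per gene do not tell the spliced from the unspliced form of XBP1.

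Liver and salivary glands had similar XBP1 levels but different levels of the chaperone HSPA5. The FPKM of XBP1 was 2.33 times that of HSPA5 in small intestine, 17.01 times in salivary glands and 1.79 times in liver. In counts, 27164 for XBP1 stood against 2889 for HSPA5 in salivary glands, and 28616 against 28516 in liver.

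Plasma cells carry much XBP1, so their markers are given beside it. The 9 plasma cell and B cell genes found summed to an FPKM of 36.8, 63.9 and 61.1, with SDC1 the most abundant in small intestine and salivary glands at 31.6 and 43.1 and IGJ in liver at 30.1. IGJ, the immunoglobulin joining chain, had an FPKM of 1.67, 10.1 and 30.1. CD38 was highest in salivary glands, with 2.58, 8.84 and 1.26, and MZB1 was highest in liver, with 0.575, 1.41 and 7.63. IRF4 and MS4A1 had 0 counts in small intestine and salivary glands and CD79B in small intestine. Of the 4 genes with enough counts in salivary glands against small intestine, 3 were past the 2-fold difference towards salivary glands (75%, against 16.9% of all genes), with a median log2 ratio of 1.70. Against liver, 2 of 6 were past it towards salivary glands (33.3%, against 22.9%) and 4 towards liver (66.7%, against 24.9%). Their part in the level of XBP1 was not tested.

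**Figure D5:**
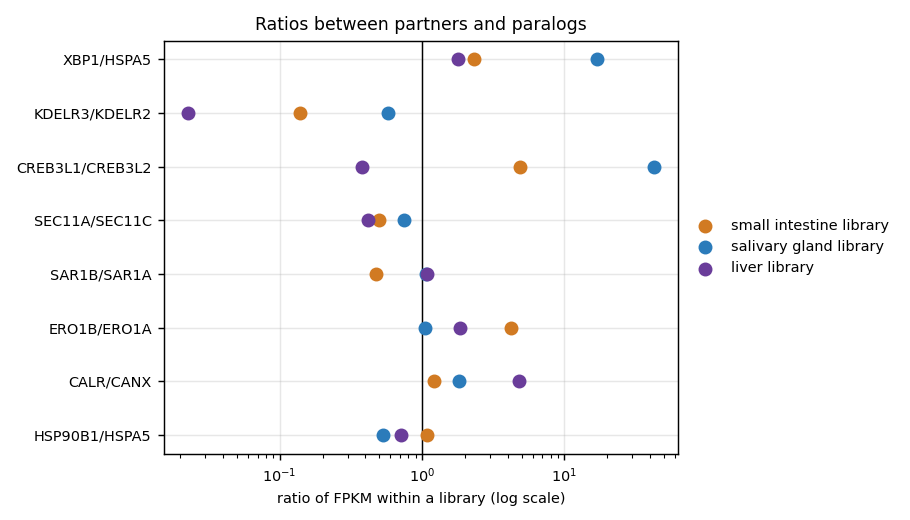
Ratio of FPKM within a library (horizontal log axis) for 8 pairs of partner or paralog genes, with 1 point per library in orange (small intestine), blue (salivary glands) and purple (liver). The ratio of XBP1 to HSPA5 reaches 17.01 in salivary glands, and that of CREB3L1 to CREB3L2 runs from 0.379 in liver to 42.8 in salivary glands.

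CREB3L1 (gene17773, scaffold NW_016542486.1, 208583 to 252974) encodes a transcription factor held in the ER membrane until it is released by cleavage, and it is known for raising collagen and secretory pathway genes. Its FPKM was 60.5, 338 and 4.43, from counts of 1086, 7389 and 145. The salivary gland count was 76.7-fold (65.1 to 91.1) that of liver after TMM scaling, the largest difference of any member, and 6.05-fold (5.68 to 6.46) that of small intestine. Small intestine exceeded liver 12.7-fold (10.7 to 15.2). Its paralog CREB3L2 (gene13342) had an FPKM of 12.5, 7.89 and 11.7 and was past the fold nowhere. The FPKM of CREB3L1 was therefore 4.85, 42.8 and 0.379 times that of CREB3L2, and liver was the only library in which CREB3L2 was the higher.

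Other factors of the CREB3 family were on a separate list. CREB3L3, known from liver, had an FPKM of 2.66, 0.0701 and 67.7, from counts of 30, 1 and 1507. CREB3L4, chosen after its values were seen, had 4.63, 28.7 and 1.12. CREB3 itself, chosen in the same way, had 16.8, 19.6 and 29.5. CREB3 and CREB3L3 were thus highest in liver and CREB3L4 in salivary glands.

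The 3 sensors of unfolded protein are ERN1, EIF2AK3 and ATF6. ERN1 (gene131), the kinase and endoribonuclease that splices XBP1 mRNA, had an FPKM of 11.3, 11.3 and 10.4. EIF2AK3 (gene20935), the kinase that slows translation, had 6.79, 13.9 and 11.9. ATF6 (gene14152), a factor cleaved in the Golgi, had 8.78, 9.80 and 24.4. The model taken as ERN1 was the most even of the members, with log2 ratios of 0.15 (0.02 to 0.27), 0.12 (-0.01 to 0.26) and 0.02 (-0.11 to 0.15) in salivary glands against liver, salivary glands against small intestine, and small intestine against liver. EIF2AK3 was past the fold only in salivary glands against small intestine, at 1.13 (0.92 to 1.35), an interval that reaches below 2-fold. The ATF6 model kept was past it nowhere, at 1.99-fold for liver over small intestine. Another model that NR names ATF-6 alpha (gene17236), chosen after its values were seen, had counts of 48, 75 and 266 and was past it towards liver, at log2 ratios of -1.24 for salivary glands and -1.71 for small intestine against liver. ERN2, the epithelial paralog of ERN1, had an FPKM of 18.2, 8.49 and 0.0497 from counts of 527, 328 and 3.

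ATF4 and DDIT3 act below EIF2AK3, ATF4 as the factor whose translation rises and DDIT3 as one of its targets. ATF4 (gene9173) had an FPKM of 305, 400.04 and 701, and DDIT3 (gene20649) had 38.4, 22.9 and 88.9. Both were highest in liver, with log2 ratios of salivary glands against liver of -0.73 for ATF4 and -1.76 (-1.96 to -1.56) for DDIT3. The FPKM of DDIT3 was 0.126, 0.0573 and 0.127 times that of ATF4. The DDIT3 locus overlaps that of MARS, which had TMM-scaled counts of 58.97, 50.4 and 278 CPM and was also highest in liver. Their reads were not separated by strand, and the part of shared reads was not tested.

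Of the 8 stress response genes, CREB3L1 was past the fold towards salivary glands (12.5%, against 22.9% of all genes) and DDIT3 towards liver in that comparison (12.5%, against 24.9%), with a median log2 ratio of -0.15. With library size alone as the scale, this median was 0.06, and 4 ratios lay on each side of 0 under both scales. Between salivary glands and small intestine XBP1, CREB3L1 and EIF2AK3 were past the fold towards salivary glands (37.5%, against 16.9%) and none the other way, with a median of 0.32. Between small intestine and liver the counts were 1 (12.5%, against 24.2%) and 3 (37.5%, against 24.2%), with a median of -0.82. Summed TMM-scaled counts of the 8 genes in salivary glands were 4.01-fold those in small intestine and 1.31-fold those in liver. These sums rest largely on XBP1, which gave 249 of 1125 CPM in small intestine, 2794 of 4513 in salivary glands and 1955 of 3452 in liver.

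Overlap with a neighbouring gene was checked for every member. The loci of 9 members overlapped that of another gene (SRP54, SEC61B, PDIA3, PDIA6, ERP44, ERO1B, SEC31A, KDELR3 and DDIT3), and 44 did not overlap any. The genes with the largest differences otherwise, among them CREB3L1, XBP1, HSPA5, CALR and HYOU1, were in the second group.

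Further genes of the pathway were listed by role beside the members. Of all 135 such genes found, 131 had enough counts in salivary glands against liver, where 10 were past the fold towards salivary glands (7.63%, against 22.9% of all genes) and 33 towards liver (25.2%, against 24.9%), with a median log2 ratio of -0.47. The share towards liver was close to that of all genes. In salivary glands against small intestine, 22 (16.5%, against 16.9%) and 7 (5.26%, against 20.6%) of 133 were past the fold, with a median of 0.35. In small intestine against liver, 9 (6.77%, against 24.2%) and 56 (42.1%, against 24.2%) of 133 were past it, with a median of -0.82. Their share of FPKM was 0.668%, 0.873% and 1.40%. For comparison, the ribosomal protein genes had medians of 0.70, 0.05 and 0.62 in these comparisons and the lysosomal genes -0.11, 0.17 and -0.37.

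Among 13 other translocation genes, 2 were past the fold towards liver in the comparison with salivary glands (15.4%, against 24.9% of all genes) and none the other way. TMM-scaled counts of 8 were highest in liver (61.5%, against 39.4% of all genes). Between small intestine and liver, 2 were also past the fold towards liver (15.4%, against 24.2%) and none the other way. SRPR, the partner of SRPRB in the receptor, had an FPKM of 86.7, 127 and 294, and TRAM1, which borders the channel, had 68.7, 93.6 and 159. EMC7, of the membrane insertase, had 35.5, 30.2 and 69.2. All 3 were highest in liver, as SEC61A1 was.

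For N-glycosylation, 17 of 18 genes were compared between salivary glands and liver, and 1 was past the fold towards salivary glands (5.88%, against 22.9%) and 3 towards liver (17.6%, against 24.9%). Of all 18 in small intestine against liver, 2 were past it towards small intestine (11.1%, against 24.2%) and 6 towards liver (33.3%, against 24.2%). The oligosaccharyltransferase subunits RPN1 and DAD1 had an FPKM of 74.5, 82.6 and 121 and of 83.8, 74.2 and 119. ALG2, an early mannosyltransferase, had 5.54, 8.21 and 35.9. TUSC3, an alternative subunit, ran the other way with 4.83, 5.996 and 0.303 from counts of 24, 33 and 2.

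Other folding genes (26 found) were less one-sided than the members of that role. Of 23 compared between salivary glands and liver, 6 were past the fold towards salivary glands (26.1%, against 22.9%) and 4 towards liver (17.4%, against 24.9%), with a median log2 ratio of -0.24 against -1.69 for the members. Of 24 compared between small intestine and liver, 4 were past it towards small intestine (16.7%, against 24.2%) and 7 towards liver (29.2%, against 24.2%). AGR2, a disulfide isomerase of mucous epithelia, had an FPKM of 573, 22.2 and 0.508, from counts of 3681, 161 and 5. PDIA2, known from pancreas, had 113, 1.08 and 1.21. PPIB, a prolyl isomerase, had 177, 203 and 482. AGR2 and PDIA2 were thus by far highest in the library labelled small intestine, in which gastric markers were also highest, and the part of gastric cells in this was not tested. DNAJC10, an ER reductase chosen after its values were seen, had an FPKM of 6.66, 53.9 and 6.10 and was highest in salivary glands. By TMM-scaled counts 8 of 24 other folding genes were highest there (33.3%, against 30.5% of all genes), which was close to the share of all genes.

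ER-associated degradation returns misfolded proteins to the cytosol. Of its 20 genes, 1 was past the fold towards salivary glands (5%, against 22.9%) and 6 towards liver (30%, against 24.9%) in that comparison. In small intestine against liver, 11 were past it towards liver (55%, against 24.2%) and 1 the other way (5%, against 24.2%). HERPUD1, which organises the degradation complex, had an FPKM of 127, 208 and 355, and the ubiquitin ligase SYVN1 had 38.05, 50.1 and 138. VIMP (selenoprotein S) had 94.1, 80.9 and 235.0, and VCP, the ATPase that extracts substrates, had 83.6, 63.2 and 228.

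Of 35 other export genes, none was past the fold towards salivary glands against liver and 8 were past it towards liver (22.9%, against 24.9% of all genes), while 5 were past it towards salivary glands against small intestine (14.3%, against 16.9%). In small intestine against liver, 19 of the 35 were past it towards liver (54.3%, against 24.2%) and none the other way. The cargo receptor TMED2 had an FPKM of 106, 207 and 254, and the GTPase ARF4 had 70.4, 93.5 and 254. LMAN2, a lectin like LMAN1, had 37.1, 51.3 and 173. SEC16B, which helps lay out exit sites, had 2.03, 2.78 and 23.6, so its liver level stood far above the others.

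Of 23 other stress response genes, 2 were past the fold towards salivary glands (8.70%, against 22.9%) and 10 towards liver in that comparison (43.5%, against 24.9%). For small intestine against liver the counts were 2 (8.70%, against 24.2%) and 11 (47.8%, against 24.2%). CEBPB had an FPKM of 40.4, 73.6 and 151, and ATF3, which is induced downstream of ATF4, had 5.42, 11.7 and 96.1. HSPA13, chosen after its values were seen, had 7.31, 4.95 and 86.8. BHLHA15, a factor of secretory cells that XBP1 is known to raise, was chosen in the same way. It had an FPKM of 24.5, 95.9 and 64.8 and was the most abundant gene of its list in salivary glands.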

How the data were processed

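Poly-A RNA of 3 tissues of 1 animal was sequenced by the authors on an Illumina instrument, and aligned as unstranded pairs with TopHat2 after reads with adaptors or of low quality had been removed. The deposited counts are whole numbers of fragments per gene that were not scaled between libraries and appear rounded up from estimates. The deposited FPKM values were scaled by the authors for transcript length and mapped fragments. The score that the authors deposited beside them was close to each count times a library-wide factor. Divided by that factor, it differed from the count by at most 1.01, 1.03 and 1.10 among members in small intestine, salivary glands and liver. It served here as a check of the counts alone. The paper mentions RSEM where it compares FPKM between tissues. It is not stated which tool made the deposited counts, nor which genome build was used.

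TMM factors (edgeR 4.0.16) were computed over all 24220 genes of the 3 libraries in R 4.3.3, and DESeq2 1.42.0 gave alternative factors. Other steps used Python 3.11.15, pandas 2.3.3, numpy 2.4.6, scipy 1.17.1 and matplotlib 3.10.9. Ratios carry exact (Clopper-Pearson) and shares Wilson 95% intervals. The limit behind a count of 0 is 3 counts. No test between tissues was run, since each had 1 library. The fold rule was run on simulated counts that held counting error only and were scaled by library size. That run cannot show how the rule behaves with TMM scaling or with variation between libraries.

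The members and lists were chosen with earlier results of these data known. Genes of the lists were found by symbol and matched to the NR name. Where several gene models carried a member's name, the 1 with the most counts was kept, which left out 11 further models and 8 genes with another product. Genes named are all members, in each other pathway list the 2 with the highest FPKM and the 2 with the widest range of log2 TMM-scaled CPM (prior 1), in each marker list the most abundant gene of each library (1 list is not reported here), and exceptions said to be chosen after their values were seen. Marker genes named as absent, or to show the range of a list, are such exceptions. Alternatives were library size, DESeq2, upper quartile and FPKM scaling, other count minimums (1 and 50), folds of 1.5 and 4, whole intervals past the fold, every gene with a listed symbol, and Swiss-Prot symbols only.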

Additional observations from a re-analysis of the deposited data

How the results depend on the processing

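No paired analysis was possible because each tissue of the single animal gave 1 library, and leaving out a replicate could not be run since no tissue has a second library. Counts of members past the fold are given here with the alternative that moved them over 1.5 times. Only library size for salivary glands over small intestine has a share of all genes to set beside it (28.5%). The other alternative counts have no such share. They show how far a count depends on the setting and not how members differ from all genes. For salivary glands over small intestine (9), library size alone gave 28, a fold of 1.5 gave 25, a fold of 4 gave 3 and every gene with a listed symbol gave 14. For small intestine over salivary glands (1), the ratio of FPKM gave 2, a fold of 1.5 gave 3, a fold of 4 gave 0 and every gene with a listed symbol gave 2. For salivary glands over liver (4), a fold of 4 and Swiss-Prot symbols only each gave 2. For liver over salivary glands (22), a fold of 4 gave 9. For small intestine over liver (3), a fold of 4, whole intervals past the fold and Swiss-Prot symbols only each gave 1. For liver over small intestine (32), a fold of 4 gave 15. Fewer or more genes pass a stricter or looser fold by construction, and whole intervals past the fold are a stricter rule as well. Every gene with a listed symbol adds the 11 further models and 8 genes with another product, so its counts cover a larger set. Library size alone raised each log2 ratio of salivary glands against small intestine by 0.46. The Swiss-Prot alternative was chosen after seeing the data and leaves CREB3L1 and KDELR3 out. For the ratio of FPKM the cause was not tested. The members' share of FPKM (0.402%, 0.898% and 1.504%) became 0.440%, 1.15% and 1.96% as a share of counts and 0.763%, 1.49% and 2.12% without the 10 most abundant genes.

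Of 159 log2 ratios, DESeq2 factors moved none beyond its counting interval, the upper quartile 8, the ratio of FPKM 69 and library size alone 143. Library size shifted the median of all genes by 0.22, 0.46 and -0.24 in salivary glands against liver, salivary glands against small intestine and small intestine against liver. The ratio of FPKM differed from that of TMM-scaled counts by a median over genes of -0.11, -0.10 and -0.0041. Signs changed in 11 ratios with library size, 2 with the upper quartile and 2 with FPKM, none of them a ratio past the fold.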
